A study of Gallus gallus with 6 samples.

Results

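The genes described here build and run the mitotic spindle, attach chromosomes to it and split the cell. They comprise mitotic kinases and cyclins, the spindle checkpoint, kinetochore, condensin, kinesin motors, spindle microtubule proteins, cytokinesis and centriole genes. Members were found by their names, by 41 name beginnings such as KIF, CENP or BUB, in the authors' deposited table of 616 differentially expressed genes. This gave 59 of the 19152 genes counted, while 8 of the name beginnings matched no gene of the table. The table holds only genes that the authors called in the comparison of the same layers with the same non-layers. The size and the direction of the members' differences between the groups are therefore a description, and nothing is read from how many of them differed.

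All 6 hens were Hy-line birds and gave 1 uterus library each. The 3 layers were 35 weeks old and were sampled 15 to 20 h post-ovulation, when a shell is being formed around the egg in the uterus. The 3 non-layers were between 35 and 60 weeks old and were taken as such because no follicle was growing in their ovaries, and their ages one by one are not used here. Age and laying status are thus not separated, and the labels name no treatment. A piece of uterine tissue was used, so that epithelium, glands, muscle and blood cells may be mixed in each library.

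A dividing cell first activates the kinase CDK1 with a cyclin, condenses its chromosomes and builds a spindle of microtubules. Kinetochores, which form on the centromeres, hold the chromosomes on the spindle, and the spindle checkpoint delays their separation until every kinetochore is attached. Cytokinesis then splits the cell. Transcripts of such genes accumulate mainly in the later part of the cell cycle and are scarce in cells that do not divide, which is the usual state of a mature secretory epithelium.

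Gene counts per library ranged from 14756666 to 20333103, and levels are given as CPM, counts scaled to the size of the library, on the TMM scale, which corrects for differences in composition between libraries. The quasi-likelihood test of edgeR was applied to the 13317 genes left after genes with low counts were filtered out. A gene was called when its adjusted p was under 0.05 and its change at least 2-fold. Of the 59 members, 58 passed the filter. With 3 hens per group, the p-values measure only the spread between these hens. Among genes that mark the laying shell gland, MEPE (ovocleidin-116, a matrix protein of the eggshell) was between 46485 and 52838 CPM in layers and between 12.4 and 37.8 in the non-layers. Other such genes varied more among layers 1, 2 and 3, such as SPP1 at 2124, 672 and 160 CPM and OCX36 at 4872, 16998 and 1220. MEPE is itself a gene that the authors called between these groups, so its values are no independent check of the labels.

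The 55 members with a role in cell division were lower in layers as a group. Their summed level was 154, 160 and 159 CPM in layers 1, 2 and 3, and 1591, 1978 and 489 in the non-layers 1, 2 and 3. The layers were close to each other at 158 ± 3.20 CPM (SD, n = 3), while the non-layers spread widely at 1353 ± 773 CPM (SD, n = 3). The mean of the non-layers was 8.59 times that of the layers, and the lowest non-layer was still 3.05 times the highest layer. Over all 59 members, layers were at 251 ± 29.0 CPM (SD, n = 3) and non-layers at 1486 ± 808 CPM (SD, n = 3). There the mean of the non-layers was 5.91 times that of the layers, and the lowest non-layer was 2.02 times the highest layer. The 4 members with roles outside the spindle, among them PLK2, make this difference. In shares of all gene counts, the 55 members took 0.0144% (Wilson 95% interval 0.0138 to 0.0149) in layer 1 and 0.215% (0.213 to 0.217) in non-layer 2. In non-layer 3, the lowest non-layer, their share was 0.0575% (0.0564 to 0.0587). Such intervals cover counting error only. In bulk tissue, fewer cells of a type and less RNA per cell cannot be told apart.

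By edgeR's test, 33 of the 58 members tested were called lower in layers, against 0.969% of all genes tested. None was called higher, where 0.901% of all genes were. The fitted level was lower in layers for 57 members, each with an unadjusted p under 0.05, also where a member was not called. Over all genes tested, 1405 of 13317 were lower with such a p. The members were listed by this same contrast, so their small p-values follow from that choice. PLK2 was the 1 member with a higher mean in layers. Its unadjusted p was 0.0079, and DESeq2 called it higher with an adjusted p of 0.00949. The log2 fold change of layers against non-layers is written log2FC, with its standard error as SE. The median log2FC of the members was -3.44, against 0.01 for all genes tested, and it ranged from -5.85 (CDCA3) to 1.30 (PLK2). Every layer lay below every non-layer for 55 of the 58 members, a pattern found in 15.1% of all genes tested. The exceptions were PLK2, where every layer lay above every non-layer, and CCNA2 and CENPO, where layers overlapped non-layer 3. DESeq2 called 58 of the 59 members lower, and 3.53% of all genes.

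The number of calls changed strongly when 1 library was left out, for the members and for all genes. Each such fit holds fewer hens and so has less power, which was not told apart from the part of single hens. Without layer 1, layer 2, non-layer 1 or non-layer 2, edgeR called 0 members. In each of these fits 57 or 58 members were lower with an unadjusted p under 0.05, which follows from how they were listed. Between 1704 (without non-layer 1) and 2715 (without layer 1) of all genes tested had such a p in either direction. Over all genes, edgeR called 6 lower without layer 1 (0.0443%) and 0 without layer 2, non-layer 1 or non-layer 2. It called 12 members without layer 3, where 0.569% of all genes were called lower, and 54 without non-layer 3, where 1.58% were. The median log2 fold change lay between -3.84 and -3.02 in all 6 of these fits. The calls by role given next carry the same limit.

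**Figure D1:**
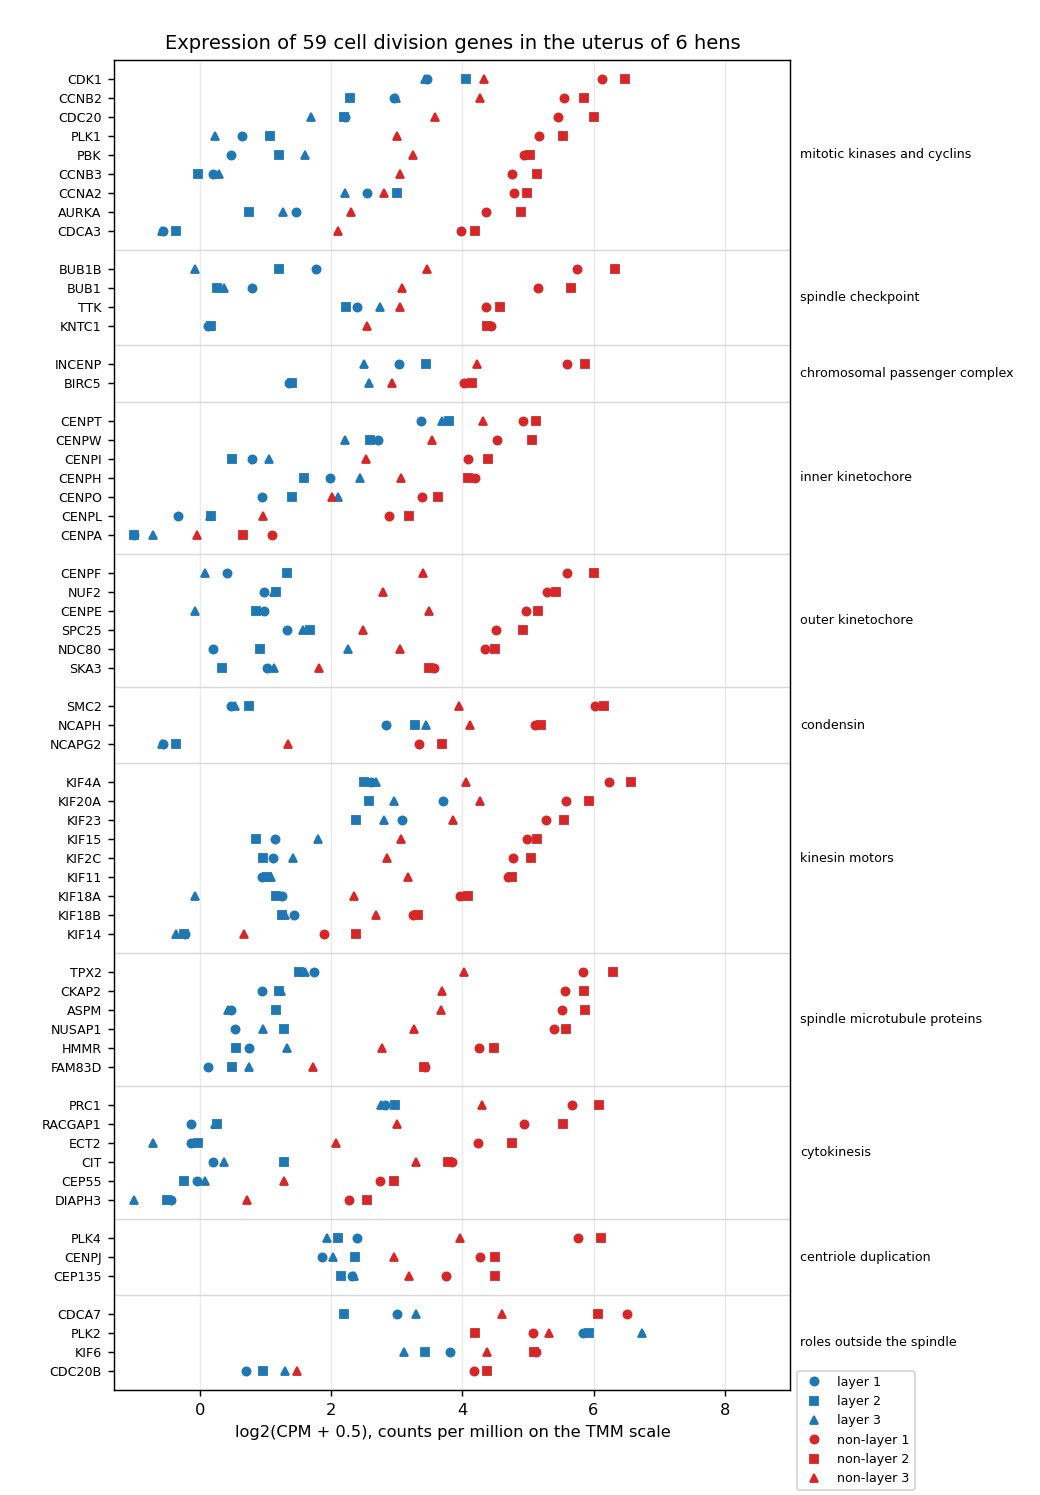
Level of each of the 59 members in each of the 6 hens as log2(CPM + 0.5) on the TMM scale, grouped by role, with layers in blue and non-layers in red and 1 symbol shape per replicate number. Blue points lie to the left of red points for all but PLK2, CCNA2 and CENPO, and the red triangles of non-layer 3 lie between the layers and the other non-layers for most genes.

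Mitotic kinases and cyclins start and steer mitosis, and 6 of the 9 members in this group were called lower in layers. Values below are given for layers 1, 2 and 3 and then for non-layers 1, 2 and 3. CDK1, the kinase that drives entry into mitosis, was at 10.5, 16.2 and 10.3 CPM in layers and 69.5, 88.8 and 19.6 in the non-layers. Levels per length are the deposited RPKM (reads scaled by a gene length and by the library total). By this measure CDK1 was the most abundant member in non-layers, with a mean of 56.9 RPKM, and was at 9.61 RPKM in layers. Every layer lay below every non-layer, but non-layer 3 was far closer to the layers than the other non-layers were. The log2FC of CDK1 was -2.27 (SE 0.53) and did not pass the test, with an edgeR adjusted p of 0.0755. It lies on chromosome 6 of the Galgal 5.0 build, from 8734947 to 8742973.

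CDCA3, which helps to mark proteins for degradation at the entry into mitosis, had the largest difference of all members. It was at 0.178, 0.278 and 0.169 CPM in layers, which are 3, 4 and 3 counts, and at 15.2, 17.7 and 3.81 in the non-layers. The layers thus held only a trace of CDCA3, 1.70% of the mean of the non-layers. The log2FC of CDCA3 was -5.85 (SE 0.72, edgeR adjusted p = 0.0273). CCNA2, the cyclin that acts from DNA replication into early mitosis, had the smallest difference of this group. Its values of 5.34, 7.51 and 4.16 CPM in layers overlapped those of 27.3, 31.3 and 6.52 in the non-layers, since layer 2 lay above non-layer 3. The log2FC of CCNA2 was -1.94 (SE 0.57) with an edgeR adjusted p of 0.119.

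For 2 members of this group, the symbol and the description in the deposited table do not match. The entry named CCNB2 is described as cyclin B1, and RefSeq (GRCg7b) lists CCNB2 as a synonym of CCNB1 on the same chromosome, 10, so both may be names of 1 gene. It was at 7.29, 4.38 and 7.42 CPM in layers and 46.2, 57.5 and 18.8 in the non-layers. Cyclins of the B type are the partners of CDK1 in mitosis, and this one fell in layers by 2.68 on the log2 scale (SE 0.45, edgeR adjusted p = 0.0358), with no overlap between the groups. The entry named AURKA, described as aurora kinase B, was at 2.25, 1.18 and 1.91 CPM in layers and 20.1, 29.2 and 4.43 in the non-layers. Aurora kinase A acts at the spindle poles and aurora kinase B at the centromeres, and RefSeq lists AURKB, but no AURKA, on the chromosome of this entry, 20, as the description has it. Its log2FC was -3.32 (SE 0.68) with an edgeR adjusted p of 0.055, again without overlap. The other called members were CDC20, the activator of the complex that ends mitosis, CCNB3, PLK1 (polo-like kinase 1) and PBK, with log2FCs from -5.18 (CCNB3) to -3.43 (CDC20).

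**Figure D2:**
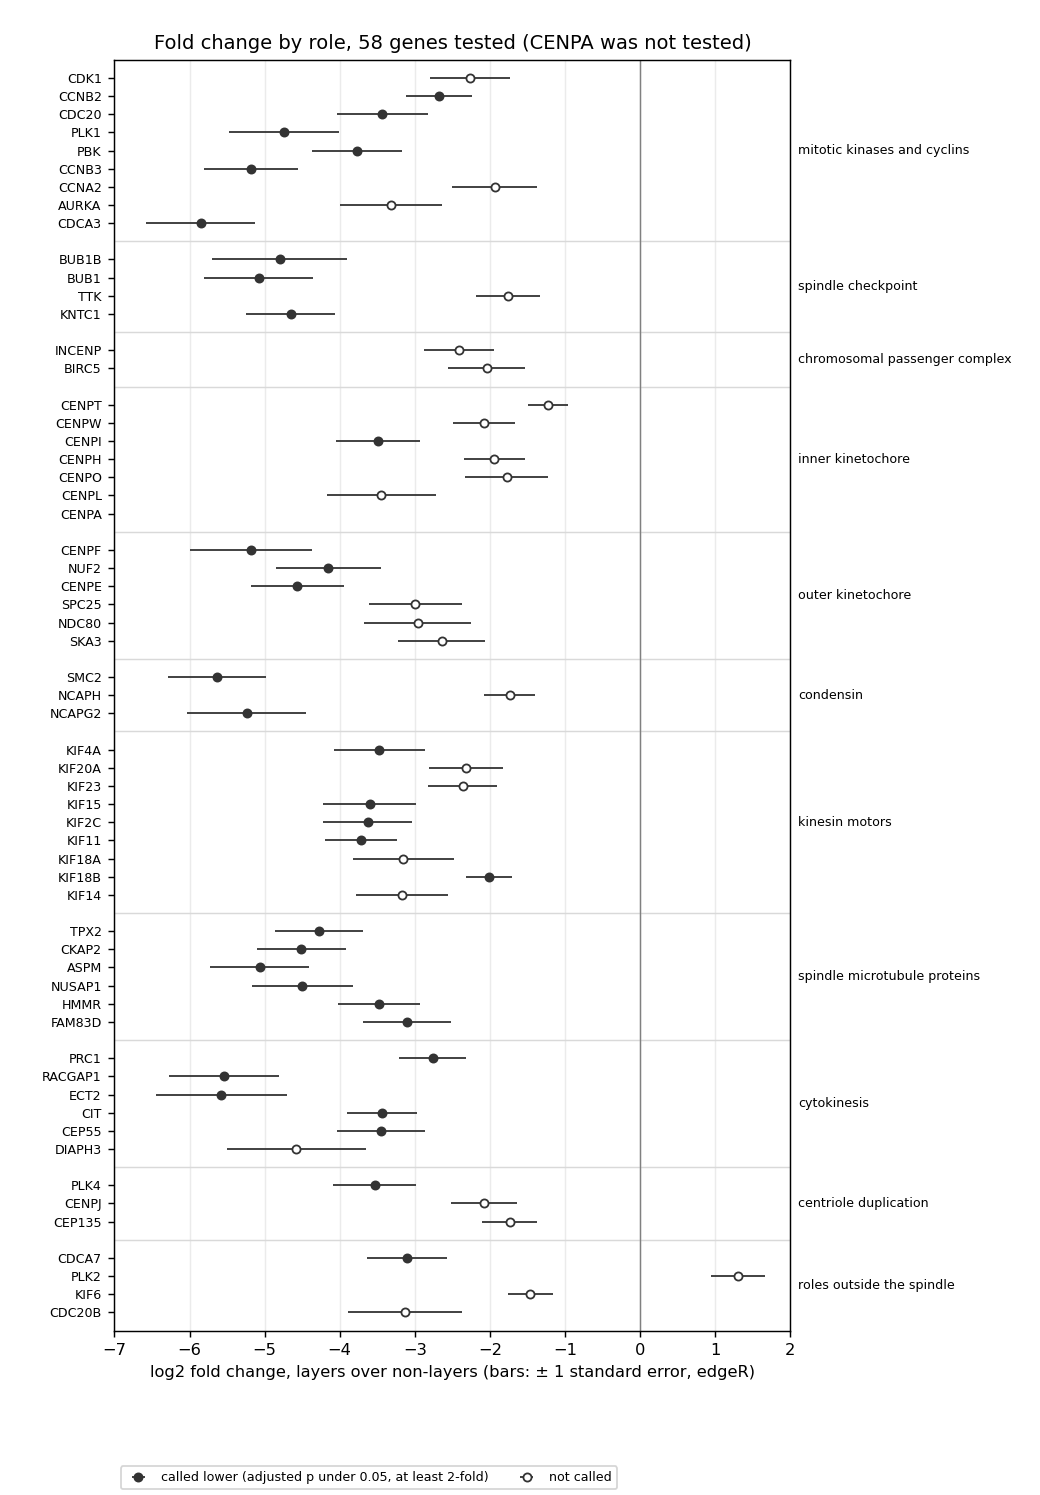
The log2 fold change of layers against non-layers by edgeR for the 58 members tested, grouped by role, with bars of 1 standard error and filled points for the 33 called lower. The differences run from -5.85 for CDCA3 to 1.30 for PLK2, and open points are the 25 members that were not called.

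The spindle checkpoint holds back the separation of chromosomes, and 3 of its 4 members were called lower. BUB1, a checkpoint kinase at the kinetochore, was at 1.24, 0.695 and 0.787 CPM in layers and 35.3, 50.2 and 7.93 in the non-layers. BUB1 had a log2FC of -5.08 (SE 0.73, edgeR adjusted p = 0.0328). BUB1B, which encodes the BUBR1 protein of the mitotic checkpoint complex, was at 2.90, 1.81 and 0.450 CPM in layers and 53.4, 79.7 and 10.5 in the non-layers. The layers lay below every non-layer for both genes, and for BUB1B layer 3 was well below the other layers. BUB1B fell by 4.80 on the log2 scale (SE 0.90, edgeR adjusted p = 0.0474). TTK, the MPS1 kinase that starts the checkpoint, kept more of its level, at 4.74, 4.17 and 6.18 CPM in layers and 20.1, 23.5 and 7.82 in the non-layers. Its groups did not overlap, though layer 3 and non-layer 3 were close, and its log2FC of -1.76 (SE 0.43) had an edgeR adjusted p of 0.0825. KNTC1, a subunit of the complex that brings checkpoint proteins to kinetochores, also fell, by 4.65 on the log2 scale.

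INCENP and BIRC5 (survivin) belong to the chromosomal passenger complex, which carries aurora kinase B and corrects faulty attachments. INCENP was at 7.71, 10.4 and 5.17 CPM in layers and 47.6, 58.0 and 18.2 in the non-layers. The groups lay well apart, with a log2FC of -2.41 (SE 0.47) and an edgeR adjusted p of 0.051, just short of a call. BIRC5 was at 2.07, 2.16 and 5.45 CPM in layers and 15.9, 17.2 and 7.14 in the non-layers. Here layer 3 came near non-layer 3, and the log2FC of -2.04 (SE 0.51) had an edgeR adjusted p of 0.089. Neither gene was thus called, although both had an unadjusted p under 0.05 and both were called lower by DESeq2.

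The inner kinetochore sits on the centromere throughout the cell cycle, and 1 of its 6 members tested was called. Its median log2 fold change of -2.01 was smaller in size than the -3.57 of the outer kinetochore, which assembles for mitosis, and the difference between these medians was not tested. CENPI was the called gene, at 1.24, 0.904 and 1.57 CPM in layers and 16.5, 20.5 and 5.27 in the non-layers, with a log2FC of -3.49 (SE 0.55, edgeR adjusted p = 0.0343). CENPT, which links centromeric DNA to the outer kinetochore, had the smallest difference among the members lower in layers. It was at 9.84, 13.4 and 12.5 CPM in layers and 29.8, 34.2 and 19.3 in the non-layers, so that the layers kept 42.9% of the mean of the non-layers without overlapping them. The log2FC of CENPT was -1.22 (SE 0.27) with an edgeR adjusted p of 0.0631. CENPW, the partner of CENPT, had the highest level per length of the group and was at 6.05, 5.56 and 4.16 CPM in layers and 22.5, 33.0 and 11.2 in the non-layers. These groups did not overlap either, and the log2FC of -2.08 (SE 0.41) had an edgeR adjusted p of 0.053.

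CENPA, the histone variant that marks the centromere, did not pass the filter. It had 0, 0 and 2 counts in layers and 27, 22 and 9 counts in non-layers, too few for the main test, and no fold change is given. With DESeq2, which tested all 59 members, CENPA was among the 58 called lower. Its exons are short in the deposited table, at 387 bases in all.

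The outer kinetochore binds the microtubules, and 3 of its 6 members were called lower. CENPF, a large protein that joins the kinetochore late before mitosis, was at 0.830, 2.02 and 0.562 CPM in layers and 47.8, 64.0 and 10.1 in the non-layers. For CENPF the log2FC was -5.18 (SE 0.81, edgeR adjusted p = 0.0343), and the groups lay far apart. NUF2, a subunit of the NDC80 complex, and the kinesin CENPE were the other called genes of the group. SPC25, another subunit of that complex, was at 2.02, 2.71 and 2.47 CPM in layers and 22.3, 30.0 and 5.11 in the non-layers. The groups did not overlap, and the log2FC of -2.99 (SE 0.62) had an edgeR adjusted p of 0.055. SKA3, part of a complex that keeps kinetochores on growing and shrinking microtubules, had the smallest difference of the group. It was at 1.54, 0.765 and 1.69 CPM in layers and 11.4, 10.7 and 3.02 in the non-layers, with a log2FC of -2.64 (SE 0.58) and an edgeR adjusted p of 0.0651.

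Condensins wind chromosomes into their mitotic form, and 2 of the 3 members were called lower. SMC2, the ATPase subunit that both condensin complexes share, was at 0.889, 1.18 and 0.955 CPM in layers and 64.5, 71.3 and 15.02 in the non-layers. The layers held 2.01% of the mean of the non-layers, and the log2FC was -5.64 (SE 0.65, edgeR adjusted p = 0.0257). NCAPH, a subunit of condensin I that joins the SMC arms, was at 6.64, 9.18 and 10.4 CPM in layers and 33.9, 36.4 and 16.9 in the non-layers. The groups of NCAPH did not overlap, but its log2FC of -1.73 (SE 0.34) was far smaller in size and had an edgeR adjusted p of 0.0526. NCAPG2, a subunit of condensin II, fell by 5.24 on the log2 scale.

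Kinesins are motors that move along microtubules, and 5 of the 9 members in this group were called lower. The kinesin CENPE (log2FC -4.56), also called, is counted with the outer kinetochore. KIF11, which pushes the spindle poles apart, was at 1.42, 1.53 and 1.63 CPM in layers and 25.6, 26.4 and 8.50 in the non-layers. Its layers were nearly equal, and its log2FC of -3.72 (SE 0.48, edgeR adjusted p = 0.0284) was the largest in size of the group. KIF23, the motor of the midzone complex that sets up cytokinesis, had the highest level per length of this group. It was at 7.94, 4.73 and 6.52 CPM in layers and 38.4, 46.5 and 14.0 in the non-layers, with a log2FC of -2.36 (SE 0.46) and an edgeR adjusted p of 0.0515. KIF18B, which trims the ends of astral microtubules, had the smallest difference of the group and was still called. At 2.19, 1.88 and 1.97 CPM in layers and 9.03, 9.56 and 5.94 in the non-layers, its values within a group lay close together, and the log2FC was -2.02 (SE 0.30, edgeR adjusted p = 0.0334). The other called kinesins were KIF15, KIF2C and KIF4A, with log2FCs from -3.63 (KIF2C) to -3.47 (KIF4A).

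All 6 spindle microtubule proteins were called lower, with log2FCs between -5.07 and -3.10. ASPM, which focuses microtubules at the spindle poles, was at 0.889, 1.74 and 0.843 CPM in layers and 45.5, 57.8 and 12.3 in the non-layers, and fell by 5.07 on the log2 scale (SE 0.66, edgeR adjusted p = 0.0289). TPX2, which starts microtubule growth near the chromosomes, was at 2.85, 2.36 and 2.53 CPM in layers and 56.8, 77.9 and 15.9 in the non-layers. TPX2 fell by 4.28 (SE 0.59, edgeR adjusted p = 0.0303), and its 3 layers differed little. FAM83D, which helps chromosomes to line up, was at 0.593, 0.904 and 1.18 CPM in layers and 10.2, 10.2 and 2.82 in the non-layers. FAM83D had the smallest fall of the group (log2FC -3.10, SE 0.58, edgeR adjusted p = 0.0474). No layer overlapped a non-layer in any of the 6 genes.

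Of the 6 cytokinesis genes, 5 were called lower. PRC1, which bundles microtubules at the spindle midzone, was at 6.58, 7.37 and 6.29 CPM in layers and 50.4, 67.6 and 19.2 in the non-layers. It had the second highest deposited RPKM of the members in non-layers, at 34.5, and fell by 2.76 on the log2 scale (SE 0.44, edgeR adjusted p = 0.0345). ECT2, which activates the GTPase RhoA at the cleavage furrow, was at 0.415, 0.487 and 0.112 CPM in layers and 18.3, 26.4 and 3.70 in the non-layers. The layers held 2.09% of the mean of the non-layers, and the log2FC of ECT2 was -5.58 (SE 0.88, edgeR adjusted p = 0.0343). RACGAP1, the partner of KIF23 and the recruiter of ECT2, fell by 5.54. The citron kinase gene CIT and the abscission gene CEP55 fell by 3.44 and 3.45, while the formin DIAPH3 had a log2FC of -4.58 and missed the threshold (edgeR adjusted p = 0.0542).

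Centrioles, which organise the spindle poles, are copied once per cycle, and 1 of the 3 genes of this group was called lower. PLK4, the kinase that starts the copying, was at 4.74, 3.82 and 3.32 CPM in layers and 53.8, 68.8 and 15.1 in the non-layers, and its log2FC was -3.53 (SE 0.55, edgeR adjusted p = 0.0343). CEP135, a structural protein of the centriole, was at 4.51, 3.96 and 4.61 CPM in layers and 13.0, 22.1 and 8.60 in the non-layers. Its groups did not overlap, and the log2FC of -1.74 (SE 0.37) had an edgeR adjusted p of 0.0589. Centrioles are also copied in large numbers by cells that make many cilia, so these genes do not belong to dividing cells alone.

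Genes whose products work together or are of the same type did not all differ by the same factor. Ratios of RPKM within a library, which do not depend on the scaling between libraries, were computed for 12 pairs chosen after the values were seen, and no test was made. The ratios do depend on the gene lengths behind the deposited RPKM, which were not the exon length for every member and could differ between libraries. With 3 hens per group, an exact permutation test could not give a two-sided p below 0.1. SMC2 over NCAPH was 0.0830, 0.0798 and 0.0570 in layers and 1.18, 1.21 and 0.549 in non-layers. RACGAP1 over KIF23, which form 1 complex, was 0.0714, 0.172 and 0.134 in layers and 0.780, 1.10 and 0.583 in non-layers. The layers thus had far less of the first gene relative to the second in both pairs. CCNB3 over CCNB2 was 0.0895, 0.116 and 0.0970 in layers against 0.571, 0.605 and 0.419 in non-layers. Both are cyclins of the B type and not partners of each other. SPC25 over NUF2 was higher in layers, at 2.11, 2.45 and 2.28 against 0.892, 1.10 and 1.25. Here the gene written second, NUF2, differed more between the groups (log2FC -4.15, against -2.99 for SPC25), and the order within a pair is arbitrary. The groups overlapped in 4 of the 12 pairs, among them CCNB2 over CDK1 and BUB1 over BUB1B.

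**Figure D3:**
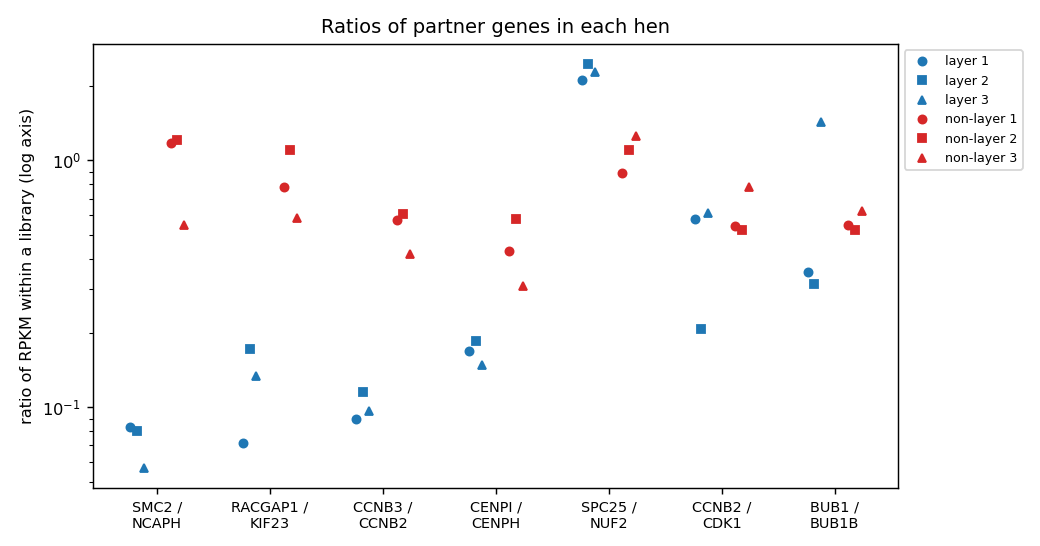
Ratio of the deposited RPKM values of partner or related genes within each library, on a log axis, for 7 of the 12 pairs. Layers are in blue and non-layers in red, with 1 symbol shape per replicate number. Layers lie below non-layers for SMC2 / NCAPH, RACGAP1 / KIF23, CCNB3 / CCNB2 and CENPI / CENPH, above them for SPC25 / NUF2, and overlap them for CCNB2 / CDK1 and BUB1 / BUB1B.

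In the levels of these genes, the non-layers differed among themselves more than the layers did, which was not so for all genes tested. Other genes lower in layers that the authors called shared this direction. Which of the non-layers is lowest was not used to list the genes. Among the non-layers, non-layer 3 was lowest for all 54 tested members with a role in cell division, against 41.9% of all genes tested and 180 of the 281 other genes of the deposited table that were lower in layers (64.1%). The order from non-layer 2 over non-layer 1 to non-layer 3 held for 50 of the 58 members (86.2%) and for 27.4% of all genes. The level in non-layer 2 was a median of 4.08 times that in non-layer 3 for the members with a role in cell division, from 1.42 times (CIT) to 7.57 times (BUB1B). The same median was 1.47 for the other lower genes of the table and 0.99 for all genes tested. It was 2.09 for 5 genes that mark the laying shell gland, 4 of which were also lowest in non-layer 3. Over the genes counted, non-layer 3 stood further from non-layers 1 and 2 than these did from each other. The chi-square statistic per gene was 75.2 and 118 for its pairs with non-layers 1 and 2, and 13.97 between those. The pairs of layers had 89.3, 143 and 163, so distances as large as those of non-layer 3 also occurred among the layers. Genes share the same libraries and are not replicates, so no p is given for these counts.

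The median coefficient of variation of the members was 0.57 among the non-layers and 0.29 among the layers, where all genes tested had 0.15 and 0.23. The 281 other genes of the deposited table lower in layers had 0.38 and 0.30, so the direction is not particular to the members. Members that differed more between the groups also differed more between non-layers 2 and 3. The ratio of these hens had a median of 4.69 in the 27 members with the larger fold changes and of 3.22 in the 27 with the smaller. Across these 54 genes, the log2FC and the log2 ratio had a Pearson r of -0.66 and a Spearman rho of -0.70. This is a description over genes, and both measures share the values of non-layers 2 and 3.

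**Figure D4:**
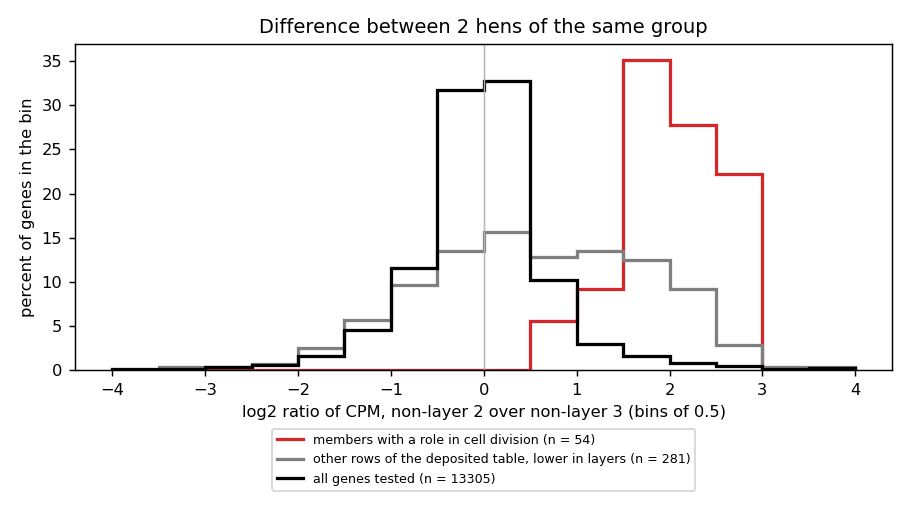
Share of genes in bins of 0.5 of the log2 ratio of CPM in non-layer 2 over non-layer 3, for the 54 tested members with a role in cell division, 281 other genes of the deposited table lower in layers, and 13305 genes tested with a count in both hens. The outermost bins also hold the ratios beyond the axis. The members lie between ratios of 1.42 and 7.57, to the right of the bulk of all genes, whose median is 0.99.

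Markers of other cell types also differed between the hens. Only genes that the authors called carry a name, so that 7 of 15 immune markers, 9 of 15 markers of ciliated cells and 0 of 8 of smooth muscle could be looked up, and no marker found was at 0 in all libraries. The immune markers summed to between 133 and 143 CPM in layers and between 292 and 378 in the non-layers, and 3 of the 7 were called lower by edgeR. Non-layer 3 had the highest immune sum of the non-layers but the lowest sum of members. Most of the immune sum came from IRF8, at 188, 211 and 226 CPM in non-layers 1, 2 and 3. Of the 7 immune markers, 1 (UBASH3A) was lowest in non-layer 3. The markers of ciliated cells summed to 199, 170 and 133 CPM in layers and 445, 474 and 344 in the non-layers, and 2 of the 9 were called lower. A marker could be looked up only if the authors had called it between these groups, so that the difference of the sums between layers and non-layers is fixed by the choice and nothing is read from it. The part of these cell types in the members' levels was not tested.

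Of the members, 4 are best known for roles outside the spindle. CDC20B shares a name with CDC20, but in mouse and frog it serves the cells that make many cilia. It was at 1.13, 1.46 and 1.97 CPM in layers and 17.6, 20.26 and 2.29 in the non-layers, so that non-layer 3 hardly exceeded the layers. Its log2FC was -3.13 (SE 0.76) with an edgeR adjusted p of 0.0849. CDC20B lies on chromosome Z of Galgal 5.0 from 16675085 to 16704790, and 25834 bases away lies CCNO, a cyclin-like gene needed for the mass copying of centrioles in such cells. CDC20B in non-layer 2 was 8.83 times its level in non-layer 3, and the ratio was 5.91 for CCNO and 5.84 for DEUP1, which builds the platform for these centrioles. For the other 7 markers of ciliated cells that could be looked up, the ratio lay between 0.295 (STOML3) and 1.67 (MDH1B), with 1.49 for CFAP52 and 1.08 for TEKT1.

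KIF6 is a kinesin with a role in cilia, known from mouse and zebrafish. It was at 13.6, 10.3 and 8.15 CPM in layers and 34.4, 33.5 and 20.34 in the non-layers, and the groups stood apart. Its log2FC of -1.46 (SE 0.29) had an edgeR adjusted p of 0.0541, and its ratio of non-layer 2 to non-layer 3 was 1.65. CDCA7, which helps to maintain DNA methylation, was at 7.53, 4.10 and 9.27 CPM in layers and 90.8, 66.5 and 23.7 in the non-layers. It was called lower, with a log2FC of -3.11 (SE 0.53, edgeR adjusted p = 0.0377), and differed from most members in that non-layer 1 was its highest library.

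PLK2, a polo-like kinase that cells induce under stress and growth signals, went the other way. It was at 56.5, 60.8 and 107 CPM in layers and 33.4, 17.8 and 39.6 in the non-layers, so that every layer lay above every non-layer and non-layer 2, the highest hen for most members, was the lowest. Its log2FC was 1.30 (SE 0.36) with an edgeR adjusted p of 0.108. Per length, PLK2 had the highest level of all members in layers, at 32.8 RPKM, ahead of CDK1 at 9.61 and CENPT at 4.86 RPKM. PLK2 lies on chromosome Z from 18020074 to 18025386.

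**Figure D5:**
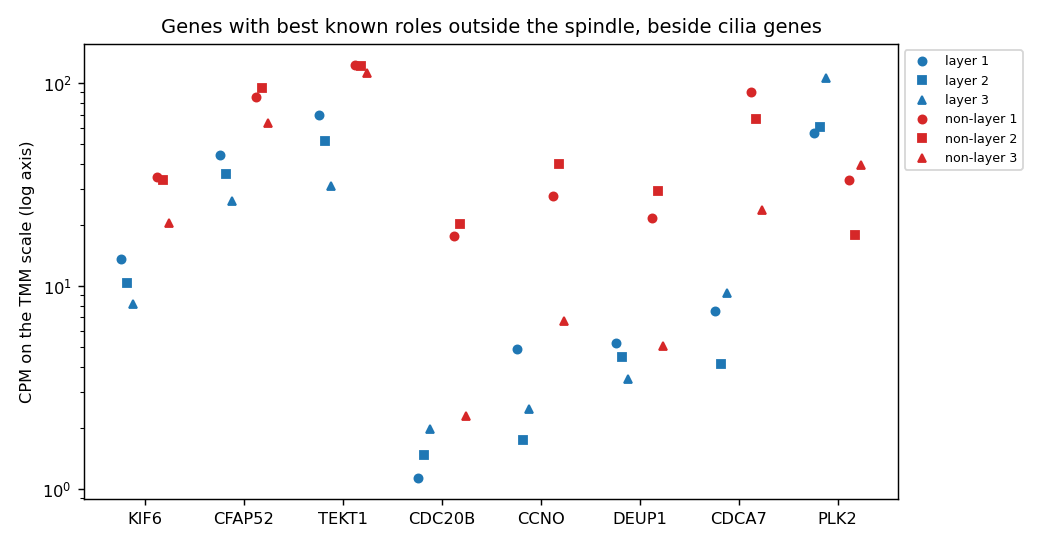
Level in CPM on the TMM scale, on a log axis, of the 4 members with best known roles outside the spindle and of 4 genes of ciliated cells, in each hen, with layers in blue and non-layers in red. CDC20B, CCNO and DEUP1 are far lower in non-layer 3 than in the other non-layers, KIF6, CFAP52 and TEKT1 differ less, and PLK2 is higher in layers.

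Cell division genes that the name rule did not reach, but that the authors called, were also lower in layers. Of a list of 50 cell division genes outside the rule, 28 have a name in the deposited table, and all 28 were tested. The others of the list could not be looked up, so their levels are not known here. By edgeR, 14 of them were called lower and none higher, where 0.969% and 0.901% of all genes tested were. All 28 had a log2FC below 0. Their median log2FC was -3.05, and since the table lists only genes called by the authors this is again a description. UBE2C, which passes ubiquitin to mitotic cyclins, had the largest difference with a log2FC of -5.87 (SE 0.77, edgeR adjusted p = 0.0289). FOXM1, the transcription factor of many late cell cycle genes, had a log2FC of -1.49 (SE 0.41) and an edgeR adjusted p of 0.11. Of the 28 genes, 27 were lowest in non-layer 3 among the non-layers. The exception was WEE1, a kinase that restrains CDK1, which differed least between the groups with a log2FC of -1.24 and an edgeR adjusted p of 0.0755.

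The members are spread over 20 chromosomes, with 8 on chromosome 3, 7 on chromosome 4 and 6 on chromosome 8. The nearest pair of members was NUF2 and CENPL on chromosome 8, 82589 bases apart. NUF2 lies from 5469840 to 5481533 and CENPL from 5564122 to 5567033 of Galgal 5.0.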

How the data were processed

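Uterus RNA of 3 layers and 3 non-layers was enriched for poly-A RNA, made into libraries with a stranded kit and sequenced as single-end reads of 76 bases. The authors checked reads with FastQC, cleaned them with Prinseq, used Array Studio to align them to the Galgal 5.0 genome, and deposited estimated (expected) counts for each Ensembl gene, not normalized. The counter, its strand setting and the annotation release are not given in the sources used here, so overlapping and antisense genes may share reads. Of the deposited expected counts, 91.46% were whole (within 1e-06), and all were rounded before count tests. Among the members, 20 of 354 values, in 6 genes (CEP135, KIF20A, PRC1, CKAP2, CCNB2 and KIF23), held a fraction. For the median gene of the deposited table, the authors' RPKM values matched the gene count total of each library and the exon length. Members departed from this, since the library totals implied by their RPKM had an interquartile range of 0.23 of the median. Levels per length and ratios of RPKM therefore rest on the deposited values as they stand. The deposited table of called genes gave names, positions and exon lengths. Its fold changes, p-values, adjusted p-values and group means are the authors' own comparison by DESeq2 and were not used. Gene names come only from that table, since a RefSeq table of the GRCg7b assembly matched none of the Ensembl identifiers. That table listed 56 of the 59 member symbols, all but AURKA, CCNB2 and KIF4A.

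Samples were grouped by the laying status in their labels. edgeR 4.0.16 in R 4.3.3 was run on all 6 libraries without covariates, with filterByExpr, TMM factors (0.934, 0.859 and 0.876 in layers, 1.11, 1.09 and 1.18 in non-layers) and Benjamini-Hochberg adjustment over 13317 genes. Standard errors were obtained as the log2 fold change over the root of the F statistic. DESeq2 1.42.0, limma 3.58.1 on log2(RPKM + 1) and log2(RPKM + 0.1) where 3 or more libraries reached an RPKM of 1, other scalings and filters, glmTreat, a replicate block and leaving out each library were alternatives. The steps were tested on simulated data. Pairs of libraries of a group differed by a chi-square statistic of 13.97 (non-layers 1 and 2) to 163 (layers 2 and 3) per gene, so none was a duplicate. The pairs of non-layer 3 with non-layers 1 and 2 had 75.2 and 118. Same-numbered hens had deviations correlated at -0.15, 0.11 and -0.07, so the numbers do not pair them.

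Members, roles and lists were chosen with earlier results of these data known. Values per hen are given, in each role, for the member with the highest mean RPKM and those with the largest and smallest fold change, for members higher in layers, for those with roles outside the spindle, and for AURKA and CCNB2. Other genes named with values are examples, and the pairs of partner or related genes were chosen after their values were seen. A planned search of promoters was not run, because no promoter sequence was used here.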

Additional observations from a re-analysis of the deposited data

How the results depend on the processing

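Of the 58 members tested, 33 were called lower with edgeR (0.969% of all genes were called lower) and 56 with library size only (5.09%). DESeq2 called 58 of 59 lower (3.53% of all genes), and limma on log2(RPKM + 1) called 50 of 54 (4.29%). With glmTreat against a 2-fold change, 0 members and 0 of all genes were called lower. There 56 members were lower with an unadjusted p under 0.05, and 586 of 13317 genes had such a p in either direction. The replicate block gave 7 members, against 10 of all genes. Leaving out 1 library gave 0 to 54, with the lone loss of non-layer 3 giving 54 (1.58% of all genes) and that of layer 3 giving 12 (0.569%). The other alternatives gave 24 to 49. The 24 were of 45 tested with at least 10 counts in every library (0.844% of all genes). The 49 were of 54 tested with limma on log2(RPKM + 0.1) (4.68%). The median log2 fold change was -2.28 on log2(RPKM + 1), whose pseudocount shrinks low genes, and -3.84 to -3.02 otherwise. With library size only, the median of all genes moved by -0.34. None of 573 values of 32 named genes reversed, but a call was lost in 104 of them and gained in 75. Non-layer 3 stayed lowest for 57 of 58 members under 3 other scalings. Groups were apart for 56 members on the TMM scale. Of all 13317 genes tested, 2009 had every layer below and 1610 every layer above every non-layer on that scale. With RPKM or library size only, groups were apart for 58 members, and the shares of all genes are not given here. On those scales the median of all genes was itself lower in layers, at -0.336 with log2(RPKM + 0.1) and -0.333 with library size only. The search of promoters was not run. Layers hold few counts of many members, for example 3 or 4 of CDCA3, which limits precision there.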

Other observations

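Among 456 other named genes of the deposited table, those whose log2 levels over the 6 libraries were most like the mean profile of the members were DNA2, TOP2A, NEK2, KPNA2 and MELK, with Pearson r of 0.9995, 0.9990, 0.9989, 0.9959 and 0.9958. TOP2A, the topoisomerase that untangles sister chromosomes, was at 10.2, 11.1 and 9.27 CPM in layers and 158, 201 and 38.8 CPM in non-layers. DNA2, a nuclease and helicase of DNA replication and repair, was at 0.356, 0.348 and 0.337 CPM in layers and 13.2, 15.3 and 3.18 CPM in non-layers. Both follow the order of the members, with non-layer 2 highest and non-layer 3 the lowest non-layer. Over the same libraries, the profile of CDCA7 had an r of 0.97 with that of the members, KIF6 0.96, CDC20B 0.96 and PLK2 -0.89. These 6 libraries fall into 2 groups, so such values mainly describe the difference between the groups and carry no p.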
